A study of Mus musculus with 6 samples.

Results

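The Myc, Max and Mxd network was followed in endothelial cells (ECs) sorted from metastatic mouse lungs, through 9 genes: Myc, Mycn, Max, Mxd1, Mxd3, Mxd4, Mxi1, Mnt and Mlx. Their members on the array were all probe sets annotated to 1 of these symbols alone, which gave 21 of the 45037 probe sets measured. Myc was picked for its fall between the groups, as seen in the values given here, and the other 8 genes were listed for their function beside it. ECs came from NSG mice aged 6 to 8 weeks, which lack lymphocytes and keep their macrophages. The mice carried lung metastases of MDA-MB-231-LM2, a lung-seeking derivative of a human breast cancer cell line. One group received clodronate-liposome, which kills the phagocytes that ingest it, and the other PBS-liposome, the vehicle, on days 14, 16 and 18 after tumor cells were injected intravenously. Lungs were taken on day 20, and CD31-positive cells were sorted after depletion of cells carrying CD45, CD11b, EpCAM, CD140a, CD140b or the tumor cells' GFP. Each group held 3 arrays, called biological replicates in the labels. The number of mice behind an array is not given in the sources used here, so errors measure only the spread between these samples.

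Myc is a transcription factor that binds DNA as a dimer with Max, most tightly at the E-box CACGTG, and raises transcription of genes for ribosome assembly, nutrient uptake, nucleotide synthesis and cell division. The Mxd proteins, Mxi1 and Mnt compete for Max and bring the Sin3 repressor complex to the same sites, and Mlx joins this family to the glucose-responsive Mondo factors. Myc mRNA and protein are both short-lived, and in ECs of growing vessels Myc is known for supporting metabolism and proliferation.

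The E-box was searched in the 300 bases around the annotated starts of the genes, 250 before and 50 after, in RefSeq sequence of mouse build GRCm38.p6. The motif was CACGTG, which reads the same on both strands. Windows were found for 8 of the 9 genes, all but Myc. The motif stood once in the windows of 4 genes, Max, Mxd4, Mnt and Mlx, and in 0 windows of Mycn, Mxd1, Mxd3 and Mxi1. Of all 32851 RefSeq windows, 7.15% held it. These sites are shown because they are the Myc-Max binding letters in the starts of Myc's own partner Max, of its antagonists Mxd4 and Mnt, and of Mlx. Each is printed 5′ to 3′ along the gene, with 20 bases on either side and the E-box in capitals.
Max (chr12:76962226-76962271, minus strand): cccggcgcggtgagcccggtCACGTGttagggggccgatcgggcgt
Mxd4 (chr5:34187904-34187949, minus strand): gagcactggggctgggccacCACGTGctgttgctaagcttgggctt
Mnt (chr11:74830781-74830826, plus strand): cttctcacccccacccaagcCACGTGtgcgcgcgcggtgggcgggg
Mlx (chr11:101087230-101087275, plus strand): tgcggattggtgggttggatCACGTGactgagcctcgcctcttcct
The first base of the E-box lay 3 bases before the start in Max, 219 in Mxd4, 123 in Mnt and 40 in Mlx.

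Among genes known to be induced by Myc, 94 of those measured had a window and 22 of them held the E-box in at least 1 window (23.4%), against 1473 of 14367 array genes with a window (10.3%). Targets were listed from knowledge of Myc, so this count describes the list. Sites of 4 targets are shown, whose expression values are given further on. Of these, Ldha, Eif4e and Nop2 were named after their values were seen. Utp20, also named further on, held the E-box too but its site is not shown.
Ldha (chr7:46845639-46845684, plus strand): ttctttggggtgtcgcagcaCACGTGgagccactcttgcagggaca
Ldha (chr7:46845736-46845781, plus strand): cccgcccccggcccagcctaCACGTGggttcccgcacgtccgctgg
Cdk4 (chr10:127063504-127063549, plus strand): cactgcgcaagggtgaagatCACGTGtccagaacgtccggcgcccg
Eif4e (chr3:138527184-138527229, plus strand): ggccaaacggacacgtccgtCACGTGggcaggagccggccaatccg
Nop2 (chr6:125131803-125131848, plus strand): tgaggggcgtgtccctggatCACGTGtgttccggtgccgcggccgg
The window of Cdk4 held 4 E-boxes, that of Ldha 2 and that of Eif4e 2, of which the ones nearest the start are given for Cdk4 and Eif4e.

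Expression was read as log2 signal, on which a step of 1 is a doubling. Myc, measured by the single probe set 1424942_a_at, stood at 9.46, 9.87 and 9.55 in clodronate-liposome ECs, against 10.99, 10.99 and 11.03 in PBS-liposome ECs. The groups did not overlap, and the highest clodronate-liposome array lay 1.11 below the lowest PBS-liposome array. Mean log2 signal was 9.63 ± 0.22 in clodronate-liposome ECs and 11.00 ± 0.025 in PBS-liposome ECs (SD, n = 3 each). The difference was -1.37 (SE 0.12, 95% confidence interval -1.66 to -1.09), so that the signal was 0.386 of that in PBS-liposome ECs, or 2.59-fold lower. By size of the decrease it ranked 47 among all 45037 probe sets. These values chose the gene and are given as a description, without a test. In RNA from a pool of sorted cells, fewer cells with Myc mRNA and less Myc mRNA per cell cannot be told apart.

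The clodronate-liposome arrays spread more widely for Myc than the PBS-liposome arrays, over 0.41 against 0.043 log2 units, and replicate 2 was the highest of its group. On that array, probe sets for the bacterial RNAs added before hybridization averaged 12.20, against 11.91 and 11.94 on the other clodronate-liposome arrays and 12.11, 12.24 and 12.12 on the PBS-liposome arrays. With this control level as a covariate the Myc difference was -1.22, and with replicate 2 as the only treated array it was -1.13. Probe sets for 18S ribosomal RNA averaged 13.0, 12.3 and 13.0 on clodronate-liposome replicates 1, 2 and 3, against 12.6, 12.4 and 12.6 on the PBS-liposome arrays. The part of hybridization in the result was not tested beyond these values, and that of ribosomal RNA was not tested.

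**Figure D1:**
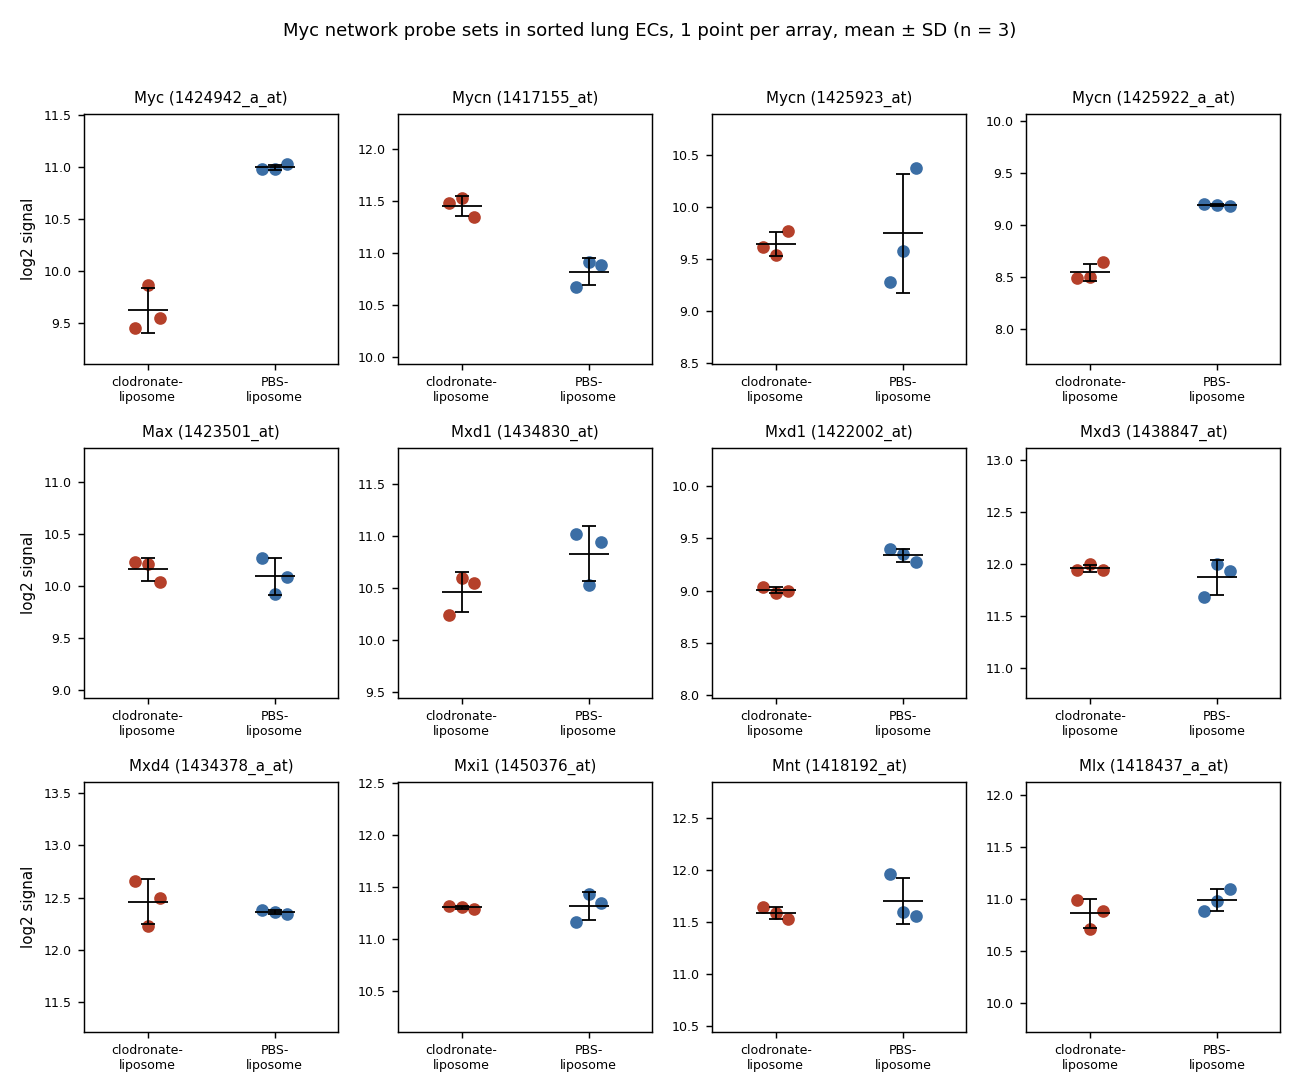
Log2 signal of 12 probe sets of the 9 genes, with 1 point per array, clodronate-liposome left and PBS-liposome right, and the mean ± SD of the 3 arrays as bars. Every panel spans the same number of log2 units. Myc lies near 9.6 in clodronate-liposome ECs and near 11.0 in PBS-liposome ECs, and the Mycn panels differ in direction.

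Mycn, the paralog of Myc that forms the same dimer with Max, had 3 probe sets that did not move together. The brightest, 1417155_at, stood at 11.48, 11.52 and 11.35 in clodronate-liposome ECs, against 10.67, 10.91 and 10.88 in PBS-liposome ECs. Its groups did not overlap, with a difference of 0.63 (95% confidence interval 0.38 to 0.88) on the higher side. The dimmest, 1425922_a_at, stood at 8.49, 8.50 and 8.64 in clodronate-liposome ECs, against 9.19, 9.19 and 9.18 in PBS-liposome ECs. Here too the groups did not overlap, but the difference was -0.64 (95% confidence interval -0.86 to -0.43), the opposite direction. The probe set 1425923_at lay between 9.54 and 9.77 in clodronate-liposome ECs and between 9.28 and 10.38 in PBS-liposome ECs, with overlapping groups and a difference of -0.10. The annotation assigns all of them to Mycn alone and does not say which transcripts or ends they read, so the array gave no single direction for this gene. Averaged over the 3 probe sets the difference was -0.039.

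Max, the shared partner of Myc and the Mxd proteins, gave 10.23, 10.22 and 10.04 in clodronate-liposome ECs, against 10.27, 9.92 and 10.09 in PBS-liposome ECs. The groups overlapped, and the difference was 0.07. Its 95% confidence interval, -0.21 to 0.35, leaves out a change of the size seen for Myc and leaves room for smaller ones in either direction.

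Of the antagonists, Mxd1 had a difference below 0 in all of its 3 probe sets. This gene is known to come on as cells leave the cycle and differentiate. The probe set 1422002_at lay between 8.97 and 9.03 in clodronate-liposome ECs, against values of 9.39, 9.35 and 9.27 in PBS-liposome ECs. These groups did not overlap, and the difference was -0.34 (95% confidence interval -0.55 to -0.13). The brightest Mxd1 probe set, 1434830_at, stood at 10.24, 10.59 and 10.55 in clodronate-liposome ECs, against 11.02, 10.53 and 10.94 in PBS-liposome ECs. Its groups overlapped through PBS-liposome replicate 2, the lowest of its group, and the difference was -0.37 (95% confidence interval -0.74 to -0.0010). The third, 1455104_at, overlapped as well, with a difference of -0.28.

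Mxd3, the member known from cells in S phase, had differences of 0.09, 0.34 and -0.11 in its 3 probe sets, all with overlapping groups. The brightest, 1438847_at, gave 11.94, 12.00 and 11.95 in clodronate-liposome ECs, against 11.69, 12.00 and 11.93 in PBS-liposome ECs. PBS-liposome replicate 1 was the lowest of these 6 arrays, and it was also the lowest for 1448878_at, at 8.99. For 1422970_at it stood at 9.12, and clodronate-liposome replicate 2 was the lowest, at 8.86. PBS-liposome replicate 1 also had the lowest mean over the 8 markers of cycling cells. That mean was 11.15, 11.23 and 11.39 in clodronate-liposome ECs and 10.48, 11.33 and 11.58 in PBS-liposome ECs. The part of dividing cells in the Mxd3 values was not tested.

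Mxd4, an antagonist found in quiescent and differentiated cells, had 4 probe sets, all with a difference above 0 and all with overlapping groups. The brightest, 1434378_a_at, gave 12.66, 12.23 and 12.50 in clodronate-liposome ECs, against 12.38, 12.36 and 12.34 in PBS-liposome ECs, a difference of 0.10 (95% confidence interval -0.19 to 0.38). Clodronate-liposome replicate 2 lay below all PBS-liposome arrays there, and the other treated arrays above them. The remaining probe sets gave 0.22 (1434379_at), 0.34 (1422574_at) and 0.07 (1422575_at).

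Mxi1, a further Max-binding repressor of the family, gave 11.31, 11.31 and 11.29 in clodronate-liposome ECs, against 11.16, 11.43 and 11.34 in PBS-liposome ECs at its brightest probe set, 1450376_at. The treated arrays lay inside the range of the PBS-liposome arrays, and the difference was -0.0068 (95% confidence interval -0.24 to 0.23). Its other probe set, 1425732_a_at, had a difference of -0.26 with overlapping groups.

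Mnt, the broadly expressed antagonist that is present in dividing and resting cells alike, gave 11.65, 11.59 and 11.53 in clodronate-liposome ECs, against 11.96, 11.60 and 11.55 in PBS-liposome ECs at 1418192_at. The difference of -0.12 (95% confidence interval -0.41 to 0.18) rested mainly on PBS-liposome replicate 1, without which it was 0.010. The dimmer 1418193_at gave -0.15, also with overlapping groups.

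Mlx, the Max-like partner of the Mondo factors and of several Mxd proteins, gave 10.99, 10.72 and 10.89 in clodronate-liposome ECs, against 10.88, 10.99 and 11.10 in PBS-liposome ECs at 1418437_a_at. Groups overlapped, with a difference of -0.12 (95% confidence interval -0.38 to 0.13). The probe set 1425930_a_at stood at 9.38, 8.96 and 9.15 in clodronate-liposome ECs, against 9.72, 9.38 and 9.56 in PBS-liposome ECs. It overlapped by a single treated array, replicate 1, and its difference was -0.39 (95% confidence interval -0.71 to -0.060).

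Over the 20 probe sets of the 8 genes beside Myc, 12 differences were below 0 and 8 above it, with a median of -0.10 and a range of -0.64 to 0.63. Groups failed to overlap in 3 of them (Mycn 1425922_a_at and Mxd1 1422002_at lower, Mycn 1417155_at higher) and overlapped in 17. Over all probe sets, 16% had groups that did not overlap. In the limma fit over all 45037 probe sets, 138 (0.306%) passed an adjusted p of 0.05, and 107 (0.238%) passed it on the lower side. Myc and Mycn 1425922_a_at were the 2 member probe sets among them. Mycn 1425922_a_at was no longer among them without any 1 of the 6 arrays, and Myc no longer without clodronate-liposome replicate 3 or any 1 of the PBS-liposome arrays. Since Myc was picked on this contrast, nothing is read from that count.

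**Figure D2:**
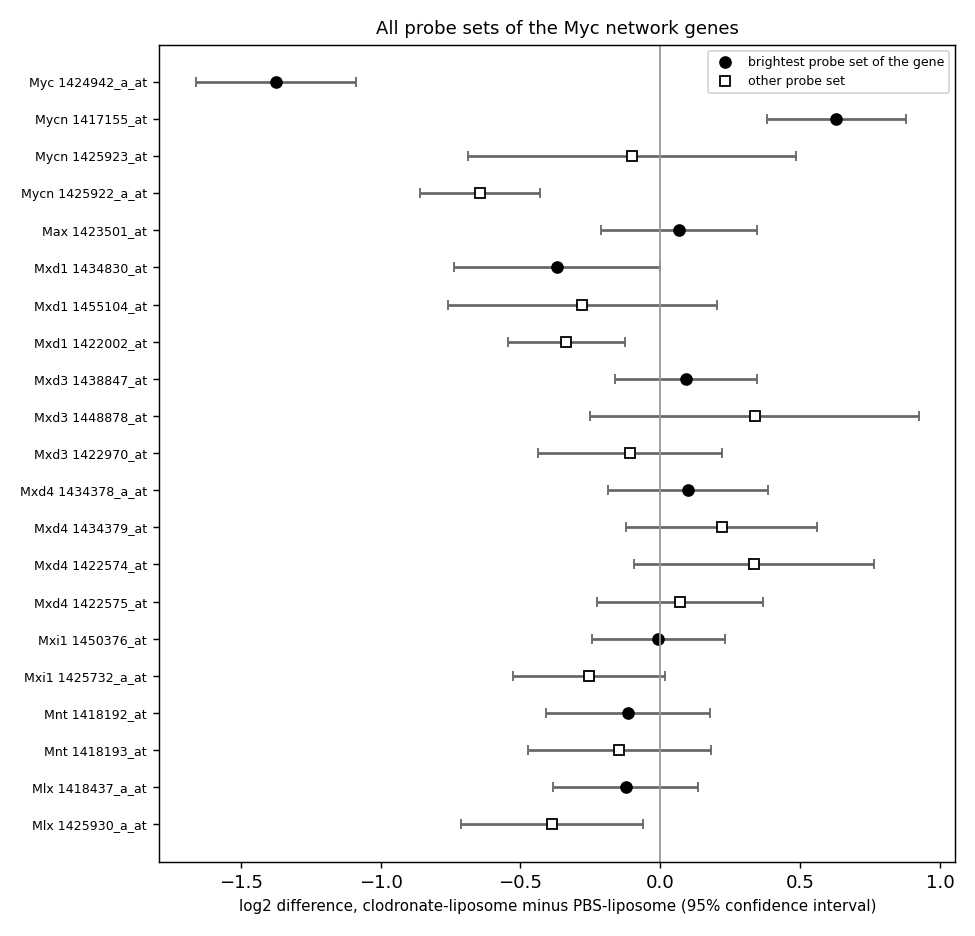
Log2 difference, clodronate-liposome minus PBS-liposome, with its 95% confidence interval from limma for the 21 probe sets, filled circles marking the brightest of each gene and open squares the others. Myc lies at -1.37, Max at 0.07, and the Mycn probe sets lie at 0.63, -0.10 and -0.64.

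Genes that control Myc mRNA and protein were set beside these values. Of 22 measured regulators of Myc transcription or mRNA, 0 passed the threshold in either direction, with a median difference of 0.0081, against -0.0031 over all 18193 genes. In the same fit, with the brightest probe set of each gene, 79 genes (0.434%) passed, and 16.2% of genes had groups that did not overlap. Groups did not overlap in 4 of the 22, or 18.2%. Stat3, a cytokine-activated factor that binds the Myc promoter, stood at 12.19, 12.30 and 12.06 in clodronate-liposome ECs, against 12.54, 12.47 and 12.47 in PBS-liposome ECs. All treated arrays lay below all PBS-liposome arrays, with a difference of -0.31 (95% confidence interval -0.54 to -0.079) that did not pass the threshold. Foxo1, which restrains Myc in resting ECs, had a difference of -0.19 with groups that did not overlap. Ctcf, which insulates the Myc locus, gave 0.31 and Rbpj, the DNA-binding partner of Notch, 0.34, but other probe sets of these genes reached down to -0.14 for Ctcf and -0.11 for Rbpj.

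Of 15 measured genes of Myc protein turnover, 0 passed the threshold in either direction, and the median was 0.050. Fbxw7, which marks Myc for degradation, gave 11.73, 11.81 and 11.88 in clodronate-liposome ECs, against 11.87, 11.49 and 11.72 in PBS-liposome ECs. Its groups overlapped, with a difference of 0.12 (95% confidence interval -0.16 to 0.39). Set, an inhibitor of the phosphatase that destabilizes Myc, had a difference of 0.22, with another probe set at -0.071, and the ubiquitin ligase subunit Skp2 one of 0.34, with another at -0.16. Aurka, a kinase that shields Mycn from degradation, gave -0.24 at its brightest probe set and 0.21 at another.

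Targets known to be induced by Myc were divided almost evenly between both directions. Of 107 measured genes, 55 had a difference below 0 and 52 above it, and the median was -0.014. Groups did not overlap in 16.8% of them, against 16.2% over all genes. A single gene passed the threshold, and it was higher: Slc7a5, which carries large neutral amino acids into cells and is also known as a target of the stress factor Atf4. Slc7a5 stood at 9.17, 8.87 and 8.82 in clodronate-liposome ECs, against 8.09, 8.02 and 8.07 in PBS-liposome ECs, a difference of 0.90 (SE 0.12, limma with Benjamini-Hochberg adjustment, adjusted p = 0.0314). Every treated array lay above every PBS-liposome array. Without any 1 of the 6 arrays its adjusted p in the same limma fit was 0.0683 to 0.138, so that it no longer passed.

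Among 29 metabolic enzymes and transporters, which include Slc7a5, the median was -0.044 and single genes lay far from 0 on both sides. Slc2a1, the glucose transporter GLUT1, stood at 9.90, 10.21 and 9.87 in clodronate-liposome ECs, against 10.69, 10.93 and 10.96 in PBS-liposome ECs. Groups did not overlap, with a difference of -0.87 and a limma adjusted p of 0.0528. Mthfd2, a mitochondrial enzyme of folate metabolism that is also known as an Atf4 target, stood at 10.87, 10.47 and 10.64 in clodronate-liposome ECs, against 9.20, 9.80 and 9.73 in PBS-liposome ECs. Its groups did not overlap either, on the higher side, with a difference of 1.08 and a limma adjusted p of 0.0684. Ldha, whose E-boxes are printed above, stood at 12.20, 12.31 and 12.42 in clodronate-liposome ECs, against 12.67, 12.79 and 12.77 in PBS-liposome ECs, a difference of -0.43 that did not pass. Odc1, the first enzyme of polyamine synthesis, overlapped, with a difference of 0.22 (95% confidence interval -0.078 to 0.52).

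Ribosome biogenesis genes, 34 of them, had a median of -0.047, with 20 differences below 0 and 0 past the threshold. Fbl, the methyltransferase of ribosomal RNA, stood at 11.20, 11.44 and 11.07 in clodronate-liposome ECs, against 11.62, 11.71 and 11.66 in PBS-liposome ECs, a difference of -0.43 (95% confidence interval -0.70 to -0.16). Groups did not overlap for Fbl, nor for Utp20 (-0.31) and Noc4l (-0.47), both of the small-subunit assembly pathway. Of the whole list, 4 genes were without overlap on the lower side and 1 on the higher, or 14.7%, against 16.2% over all genes. Ncl, the nucleolar protein nucleolin, gave 12.66, 12.74 and 12.64 in clodronate-liposome ECs, against 12.65, 12.63 and 12.63 in PBS-liposome ECs. The Ncl difference was 0.04 (95% confidence interval -0.16 to 0.25), and that of Nop2 was 0.0080. Of 29 genes of this list with a window, 8 held the E-box, among them both Nop2 and Utp20.

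The 10 translation-related targets had a median of 0.0058. Eef1e1 stood at -0.40 and Eif1a at -0.39, both lower in all treated arrays than in all PBS-liposome arrays. Eif4ebp1 stood at 0.19. Eif4e, the cap-binding factor, gave -0.031. Of the 15 mitochondrial and chaperone targets the median was 0.016, with Tbrg4 at -0.29 (another probe set 0.17), Hspe1 at -0.14 (another 0.20) and Tfb2m at 0.15. The 19 cell cycle targets had a median of 0.069, with Ccne1 at 0.36, E2f2 at 0.50 and Skp2 at 0.34. Groups overlapped for Ccne1, E2f2 and Skp2. Of the 19 cell cycle targets, 1 had groups that did not overlap, with clodronate-liposome lower, or 5.26%, against 16.2% over all genes. Cdk4, the kinase with 4 E-boxes in its window, gave 12.47, 12.25 and 12.45 in clodronate-liposome ECs, against 12.33, 12.33 and 12.49 in PBS-liposome ECs, a difference of 0.0053 (95% confidence interval -0.24 to 0.25). Its cyclin Ccnd2 gave -0.059. Across these 4 lists of ribosome, translation, mitochondrial and cell cycle genes, 0 genes passed the threshold in either direction.

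Set beside the E-box, the median difference was -0.028 over the 22 targets with the motif in a window and 0.013 over the other targets with a window. Of all array genes with a window, 4 (0.272%) of those with the motif and 55 (0.427%) of those without it passed the threshold.

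Genes known to be repressed by Myc, 16 in number, had a median of -0.031, with 8 below 0, 8 above it and 0 past the threshold. Cdkn1a, which encodes the cell cycle inhibitor p21, gave 13.05, 12.77 and 12.96 in clodronate-liposome ECs, against 13.03, 12.96 and 13.02 in PBS-liposome ECs. Its groups overlapped, with a difference of -0.077 (95% confidence interval -0.32 to 0.17). Nfil3 stood at -0.58 and Ndrg1 at -0.38, both lower in all treated arrays, and Cdkn2b at -0.38 with overlapping groups. Differences over the whole list ranged from -0.58 to 0.61.

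Of 10 measured targets of the Mondo and Mlx dimers, 0 passed and the median was -0.022. Txnip, their best-known target and a brake on glucose uptake, gave 13.46, 13.04 and 13.33 in clodronate-liposome ECs, against 13.14, 12.93 and 13.14 in PBS-liposome ECs, a difference of 0.20 with overlapping groups. Pfkfb3, a driver of glycolysis in ECs, had a difference of -0.62, Scd1, a fatty acid desaturase, one of 0.40 and Arrdc3, a relative of Txnip, one of 0.17. Of the 18 other network genes and cofactors, 0 passed and the median was 0.011. Kat2a, the acetyltransferase that Myc recruits, stood at 10.45, 10.54 and 10.60 in clodronate-liposome ECs, against 10.94, 10.85 and 10.91 in PBS-liposome ECs, with a difference of -0.37 and groups that did not overlap. The paralog Mycl gave -0.26 at its brightest probe set and 0.31 at another, and Bmyc gave 0.19.

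Immediate early genes, which growth factors and cytokines switch on within minutes, as they do Myc, lay mostly below 0. Of 16 measured, 12 had a difference below 0, the median was -0.19, and in 7 (43.8%) every treated array lay below every PBS-liposome array. Over all genes, 50.9% had a difference below 0 and 8.75% had groups that did not overlap with clodronate-liposome lower. One immediate early gene passed the threshold on the lower side and 0 on the higher. Atf3 fell to 12.10, 12.12 and 12.22 in clodronate-liposome ECs, against 13.00, 12.89 and 12.73 in PBS-liposome ECs, a difference of -0.73 (SE 0.11, limma adjusted p = 0.0454). Without any 1 of the 6 arrays the limma adjusted p was 0.0968 to 0.173, so that Atf3 no longer passed. Egr2, at -0.77, and Ier2, at -0.51, did not pass but had groups that did not overlap, while Fos gave -0.18 (95% confidence interval -0.44 to 0.072) with overlapping groups.

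**Figure D3:**
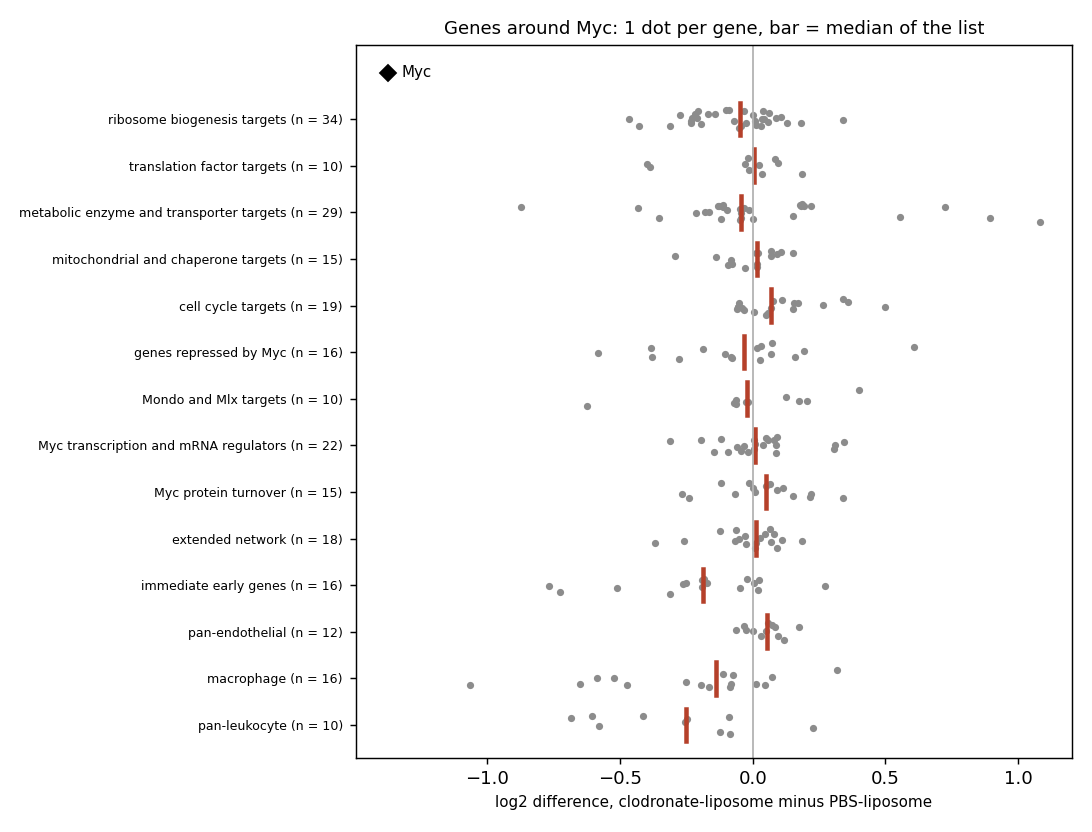
Log2 difference, clodronate-liposome minus PBS-liposome, of each gene (grey dots, brightest probe set) in 14 lists, with the list's median as a red bar and Myc as a black diamond at -1.37. Medians of the target lists lie between -0.047 and 0.069, that of the immediate early genes at -0.19 and that of the macrophage markers at -0.14.

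Endothelial markers were measured in all arrays at like levels. The 12 pan-endothelial markers had a mean log2 signal of 13.04 to 13.24 in clodronate-liposome ECs and 13.06 to 13.13 in PBS-liposome ECs, and Pecam1, which encodes CD31, differed by 0.07. Macrophage markers, which the sort was meant to remove and the treatment targets, had lower signals on the side where Myc was lower. Their mean over 16 genes was 8.33 to 8.46 in clodronate-liposome ECs and 8.47 to 8.75 in PBS-liposome ECs, with a median difference of -0.14, 12 of 16 below 0 and 0 past the threshold. That median was -0.075 without PBS-liposome replicate 1 and -0.27 without PBS-liposome replicate 2. Groups did not overlap in 31.25% of these 16 markers, 5 lower and 0 higher, against 16.2% over all genes. Cybb differed by -1.06, Lgmn by -0.52 and Csf1r by -0.65, and Adgre1, which encodes F4/80, stood at 7.16, 7.30 and 7.14 in clodronate-liposome ECs and at 7.31, 6.94 and 7.85 in PBS-liposome ECs. For the 10 pan-leukocyte markers the mean was 8.16 to 8.35 in clodronate-liposome ECs and 8.35 to 8.76 in PBS-liposome ECs, with a median difference of -0.25, 9 of 10 below 0 and 0 past the threshold. In 5 of them every treated array lay below every PBS-liposome array and in 1 above, or 60% without overlap, against 16.2% over all genes. The median was -0.095 without PBS-liposome replicate 3, -0.42 if PBS-liposome replicate 1 was left out, and -0.42 if clodronate-liposome replicate 2 was. Itgb2 differed by -0.61, Fcer1g by -0.69 and Ptprc, which encodes CD45, by -0.58. An array signal has no true zero, and the part of remaining leukocytes in the Myc values was not tested.

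The genes whose profile lay closest to that of Myc were found from log2 signals centred on their mean over the 6 arrays, as the root mean square difference from Myc over those arrays, using the brightest probe set of each of the 18193 genes. The 8 nearest were Mx2 (0.083), an antiviral GTPase; Cxcl10 (0.101), a chemokine; Ackr1 (0.107), a chemokine-binding receptor of venular ECs; Zbp1 (0.128), a sensor of nucleic acids; the GTPase Igtp (0.137); Slfn3 (0.137); the GTPase Irgm2 (0.147); and Gadd45g (0.151), a stress-induced gene. Mx2 averaged 8.11 in clodronate-liposome ECs and 9.55 in PBS-liposome ECs, a difference of -1.44, and Ackr1 averaged 10.01 in clodronate-liposome ECs and 11.37 in PBS-liposome ECs, a difference of -1.36. The measure rewards a difference of the same size as that of Myc, so all 8 had differences of -1.53 to -1.16. By their brightest probe sets the network genes lay farther away, with Mxd1 the nearest of them at 0.530, Max at 0.739, and Mycn the farthest at 1.01. The place of Mycn rests on 1417155_at alone. Its probe set 1425922_a_at, with a difference of -0.64 in the direction of Myc, was not part of this ranking.

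**Figure D4:**
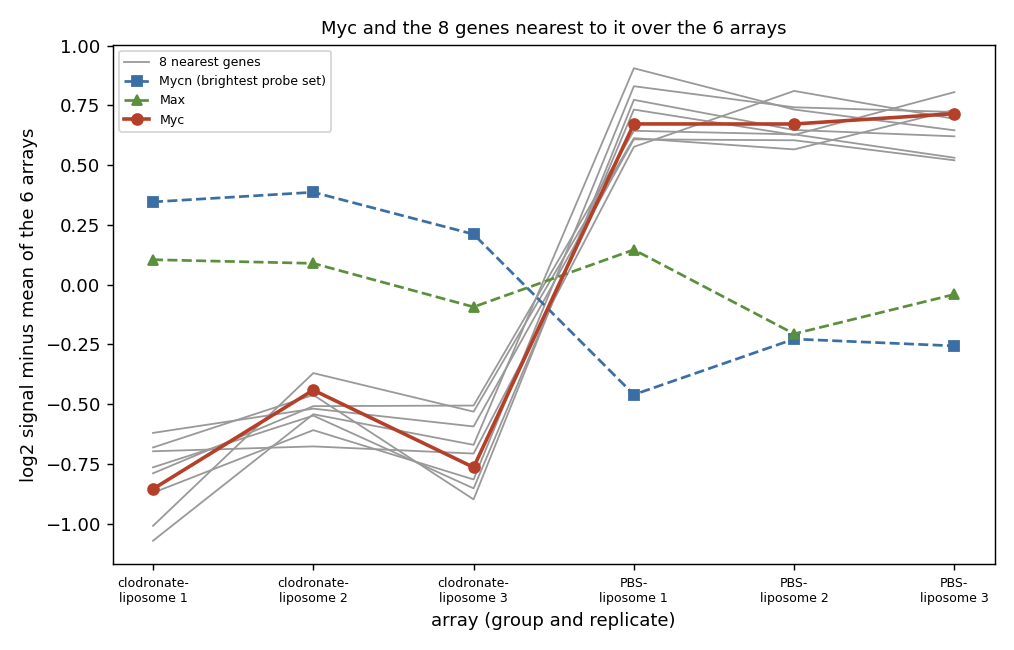
Log2 signal minus the gene's mean over the 6 arrays, for Myc (red), the 8 nearest genes (grey), Mycn by its brightest probe set (blue) and Max (green), clodronate-liposome arrays left and PBS-liposome arrays right. Lines join arrays only to show which values belong to 1 gene. Myc and the grey genes lie below 0 in every clodronate-liposome array and above 0 in every PBS-liposome array.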

How the data were processed

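Total RNA of sorted ECs was labelled and hybridized to Affymetrix Mouse Genome 430 2.0 arrays, 1 array per sample. The deposited values are log2 signals that the authors made by robust multiarray averaging in Chipster 3.8.0, which corrects background, gives all arrays 1 distribution and combines the probes of a probe set. That step removes any shift common to most genes, and the signal floor it leaves compresses differences of dim probe sets. Scanner files were not used here. Arrays have no read depth, and their number limits the precision.

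The table held 45101 probe sets, of which 64 controls were left out. The platform annotation gave 34945 of the others 1 symbol, 932 several and 9160 none, and 34741 were matched by gene identifier to RefSeq genes of GRCm38.p6, which changed 0 symbols. A gene was represented by its brightest probe set.

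Differences, clodronate-liposome minus PBS-liposome, came from the empirical Bayes fit of limma 3.58.1, run in R 4.3.3 (two-sided, Benjamini-Hochberg over 45037 probe sets, threshold 0.05, no filter and no covariate), and confidence intervals from the same fit, with 4 residual and 3.9 prior degrees of freedom. The fit was tested on simulated data. Levels of different probe sets were not compared. An exact permutation test of 3 against 3 arrays cannot go below 0.1 and was not used. The members, gene lists and tests were chosen with earlier results of these data known. From the lists around Myc and the macrophage and pan-leukocyte lists the text names members past the threshold, then those of smallest p up to 3, and a set of anchor genes (Fbxw7, Foxo1, Stat3, Ncl, Odc1, Cdk4, Ccnd2, Cdkn1a, Txnip, Fos, Pecam1, Adgre1, Mki67). The other marker lists are given by their means, with anchors only. Ldha, Eif4e and Nop2 were named in addition, after their values were seen. E-boxes were searched in RefSeq windows with Python. Alternatives covered normalization, a filter on dim probe sets, the variance model, array weights, hybridization controls, the replicate number as a block, the probe set per gene and each array left out.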

Additional observations from a re-analysis of the deposited data

How the results depend on the processing

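The Myc difference stayed negative under all 15 alternatives, between -1.50 and -1.13, and moved by more than its spread only with clodronate-liposome replicate 2 as the sole treated array (-1.13). Leaving out each array gave -1.50 to -1.29. Myc stayed among the probe sets past the threshold in 8 of 15 alternatives and in 2 of the 6 that leave out an array. It did not with the hybridization control covariate or the replicate block. Myc was picked on this contrast, so nothing is read from these counts. Member probe sets past the threshold besides Myc, 1 as reported, were 2 without probe sets below the median signal. These were Mycn 1425922_a_at, lower, and Mycn 1417155_at, higher. With trended and robust variance the count stayed at 1, but Mycn 1417155_at passed in place of 1425922_a_at, in the opposite direction. The count was 0 with the hybridization control covariate, with the mean of all probe sets of a gene, and without any 1 array. Over all probe sets the 138 calls became 244 without the dimmer probe sets, 248 with trended and robust variance, 234 with array weights, 0 with the covariate, 0 with replicate 2 alone and 6 to 73 without 1 array (fewest without PBS-liposome replicate 2). Induced Myc targets past the threshold, 1 as reported, were 3 without the dimmer probe sets, 4 with trended and robust variance, 3 with array weights, 3 with the mean of all probe sets, 0 with the covariate, 0 with replicate 2 alone and 0 without any 1 array. Slc7a5 passed in 5 of 14 alternatives, Slc2a1 in 3 and Mthfd2 in 3. Repressed genes gave 0 throughout. The macrophage median was -0.36 without the dimmer probe sets. The cause of these shifts was not tested. With the replicate number as a block, 0 member probe sets, 0 probe sets and 0 targets passed. Same-numbered arrays correlated in their deviations at 0.075, 0.070 and 0.036, each array best with its own number. Arrays of different number correlated at -0.058 to -0.0065. The labels do not say that the numbers pair the samples, so the main fit used no pairing. Whether they do was not settled.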

Other observations

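Lists that bear on no comparison above were measured as well. The 8 epithelial markers had a mean log2 signal of 7.66, 8.22 and 8.34 in clodronate-liposome ECs and 8.08, 7.88 and 8.00 in PBS-liposome ECs, with a median difference of 0.068. The 9 fibroblast and mural markers averaged 9.36, 9.11 and 9.30 in clodronate-liposome ECs and 9.24, 9.42 and 9.50 in PBS-liposome ECs, with a median of -0.20, which was -0.024 without clodronate-liposome replicate 2. Mki67, a marker of dividing cells, stood at 12.12, 12.29 and 12.35 in clodronate-liposome ECs and at 11.64, 12.48 and 12.71 in PBS-liposome ECs. Its groups overlapped, and PBS-liposome replicate 1 was the lowest of the 6 arrays, as it was for the brightest Mycn probe set. For Mki67 the other PBS-liposome arrays lay above all clodronate-liposome arrays. For the Mycn probe set they lay below them, at 10.91 and 10.88 against 11.35 to 11.52. The part of dividing cells in the Mycn values was not tested.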
